A study of Mus musculus with 24 samples.

Results

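The genes described are the hnRNP and SR splicing factor genes of the mouse: every gene with a symbol that starts with Hnrnp, or with Srsf and a digit, and the SR-like genes Tra2a and Tra2b. The rule found 33 genes in both tables of library-scaled counts (CPM), of 17501 genes in the table of mouse embryonic stem cells (mESC) and 16024 in the table of neural progenitor cells (NPC) derived from them. Of these, 20 are hnRNP genes and 13 are SR or SR-like genes, and each of the 33 passed the filter on low values in both cell types (at least 1 CPM in at least 2 libraries). In both cell types, 32 of them reached 1 CPM in all 12 libraries. The exception was Srsf12, which reached it in 10 NPC libraries and in only 4 in mESC, all 4 from knock-in lines. The study measured RNA of cells that carry Huntington's disease alleles of Htt, the gene of huntingtin, in which a CAG repeat in the first exon encodes a polyglutamine stretch, and its title relates the repeat length to linear and back-splicing. In each cell type 6 genotypes were sequenced as pairs of libraries, which the design text calls biological samples. Htt knockout (KO) and wild type (WT) were compared with 4 knock-in lines, heterozygous for a CAG repeat of 20, 50, 92 or 111 (Q20, Q50, Q92, Q111); the culture protocol gives the length of the Q92 line as 89. The labels name 1 line for each allele, so a difference between lengths is also a difference between lines. mESC were kept in serum with leukemia inhibitory factor on a feeder layer of irradiated CF-1 fibroblasts, and NPC were maintained in FGF and EGF on laminin. No agent was added to one group and not to another.

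SR proteins carry an RNA recognition motif and a tail rich in arginine and serine, bind enhancer sequences in exons and recruit the spliceosome to nearby splice sites. hnRNP proteins coat nascent transcripts, and many of them bind silencers and repress the use of an exon, so that the balance of both families sets many alternative splicing choices. Many of these genes limit their own level: the protein promotes inclusion of a poison exon or retention of an intron in its own transcript, which is then degraded by nonsense-mediated decay. Both families are abundant in dividing stem and progenitor cells, and Srsf6 has been reported to bind the expanded CAG tract of Htt RNA.

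The promoters of 4 genes that the results turn on show the range within the families. Srsf6 (chr2:162931258-162931557, plus strand), Hnrnpab (chr11:51606832-51607131, minus strand) and Srsf2 (chr11:116853045-116853344, minus strand) had rising levels with CAG length in NPC, and Hnrnph3 (chr10:63023800-63024099, minus strand) was the 1 gene with a slope below 0. Sequences are from RefSeq on GRCm38.p6, 300 bases from 250 before to 50 after the start, written 5′ to 3′ on the gene's strand. Capitals mark matches, on either strand, to 7 motifs, and overlapping matches were each counted. The ETS core was searched with the letters CCGGAA, and the CCAAT box with the letters of its name. A GC box was a match to the letters GGGCGG. For the TATA box the letters were TATAAA. An E-box was a match to the palindrome CACGTG. For E2F the letters were TTTGGCGC or else TTTCGCGC, and for NRF1 the palindromic core of its motif was used.
Srsf6: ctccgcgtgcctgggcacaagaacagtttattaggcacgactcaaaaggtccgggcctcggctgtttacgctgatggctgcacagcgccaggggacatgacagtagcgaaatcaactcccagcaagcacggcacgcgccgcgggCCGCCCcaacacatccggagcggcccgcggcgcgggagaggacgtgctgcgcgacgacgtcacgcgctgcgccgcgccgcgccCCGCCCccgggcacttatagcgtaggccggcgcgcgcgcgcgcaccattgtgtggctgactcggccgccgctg
Hnrnpab: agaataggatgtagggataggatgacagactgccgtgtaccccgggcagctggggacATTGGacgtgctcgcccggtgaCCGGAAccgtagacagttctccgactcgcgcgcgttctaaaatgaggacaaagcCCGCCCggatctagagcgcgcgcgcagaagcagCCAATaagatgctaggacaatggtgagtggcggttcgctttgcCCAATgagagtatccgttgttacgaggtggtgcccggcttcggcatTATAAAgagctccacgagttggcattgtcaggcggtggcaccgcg
Srsf2: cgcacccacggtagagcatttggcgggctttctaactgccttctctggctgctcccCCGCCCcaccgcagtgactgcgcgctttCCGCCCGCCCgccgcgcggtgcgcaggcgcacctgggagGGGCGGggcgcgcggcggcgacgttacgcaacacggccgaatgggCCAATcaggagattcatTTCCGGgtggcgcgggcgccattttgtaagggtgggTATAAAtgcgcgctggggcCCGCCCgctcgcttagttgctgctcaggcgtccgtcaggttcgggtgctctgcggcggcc
Hnrnph3: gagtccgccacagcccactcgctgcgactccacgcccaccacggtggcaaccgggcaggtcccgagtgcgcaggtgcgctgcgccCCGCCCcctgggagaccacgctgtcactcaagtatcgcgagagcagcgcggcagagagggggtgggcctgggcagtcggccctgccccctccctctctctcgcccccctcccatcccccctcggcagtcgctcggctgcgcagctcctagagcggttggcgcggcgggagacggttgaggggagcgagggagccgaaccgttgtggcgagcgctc
The Srsf6 and Hnrnph3 windows held GC boxes and no other of the 7 motifs, and were 70% and 73% G and C. Hnrnpab held 3 CCAAT boxes, 1 ETS core, 1 GC box and 1 TATA box at 58.3% G and C, and Srsf2 held 5 GC boxes beside 1 CCAAT box, 1 ETS core and 1 TATA box. RefSeq gave 43 promoters for 31 of the 33 genes (not for Hnrnpll and Hnrnpul2). A GC box was found in 83.7% of the 43, against 57.7% of the 15582 promoters of genes in the NPC table, a CCAAT box in 51.2% against 37.4%, an ETS core in 39.5% against 23.2%, an E-box in 11.6% against 9.18% and a TATA box in 9.3% against 7.96%. Over all 32851 promoters of the reference these shares were 35.7%, 37.4%, 14.9%, 7.15% and 13.6%. The NRF1 core was in 1 of the 43 (2.33%, against 1.72% of the NPC table's and 0.971% of all promoters) and the E2F letters in none (against 1.3% and 0.813%). The median G and C content was 67.3% in these promoters and 59.7% in those of the NPC table, and GC boxes and ETS cores are themselves made mostly of G and C. These matches are letters in a window, not measured binding.

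Libraries held 58546211 to 81502284 reads in mESC and 48525333 to 118038952 in NPC, and no member had fewer than 13 reads in any library. The labels were checked on Htt itself. In NPC it stood at 100.1 and 94.9 CPM in the KO libraries and at 137 and 177 in WT, a log2 difference of -0.67 (adjusted p = 0.0673). In mESC the library labelled KO replicate 1 held 139 CPM of Htt, above both WT libraries (124 and 113), while replicate 2 held 68.5, so the mESC KO label is not borne out by Htt RNA in 1 of its 2 libraries. Where the gene was altered is not given in the sources used here. The summed CPM of 12 pluripotency genes was 2232 to 4148 in mESC, and that of the 8 found in the NPC table was 6.42 to 162 in NPC. Within NPC the Q20 libraries stood apart, with 156 and 162 against 6.42 to 34.7 elsewhere, and with Pou5f1, a defining pluripotency gene, at 90.1 and 87.4 CPM against 0 to 0.405. Of 12 neural progenitor genes 11 were in the NPC table, and their summed level was 3016 to 7527, lowest in the 2 Q20 libraries.

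Per kilobase of annotated exon, Hnrnpab and Hnrnpa1 were the most abundant members in both cell types. Averaged over the 12 libraries they stood at 248 and 246 CPM per kilobase in NPC and at 214 and 275 in mESC. Hnrnpk, which binds cytosine-rich RNA, followed with 137 and 147. The most abundant SR genes were Srsf2, a core component of nuclear speckles, at 97 and 141, and Srsf5 in NPC (62.6) or Srsf7, an adaptor of mRNA export, in mESC (103). Srsf12, a tissue-restricted relative that can counteract SR proteins, was near the detection limit at 0.443 and 0.284. The next lowest per kilobase in both cell types was Hnrnpr, at 5.74 in mESC. Its annotated exons span 22.2 kilobases, the longest of the members, and its CPM was not among the lowest. The 2 tables were scaled separately, so levels are set side by side without a test. Every mESC library lay above every NPC library for 2 genes, Hnrnpc (means 561 and 330.5 CPM), which binds uridine tracts, and Tra2a (161 and 96.3). The reverse held for 1 gene, Hnrnpr (127 in mESC and 222 in NPC), known for carrying mRNA into axons. For the other 30 the libraries of the cell types overlapped. The share of all genes without such an overlap was not counted.

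**Figure D1:**
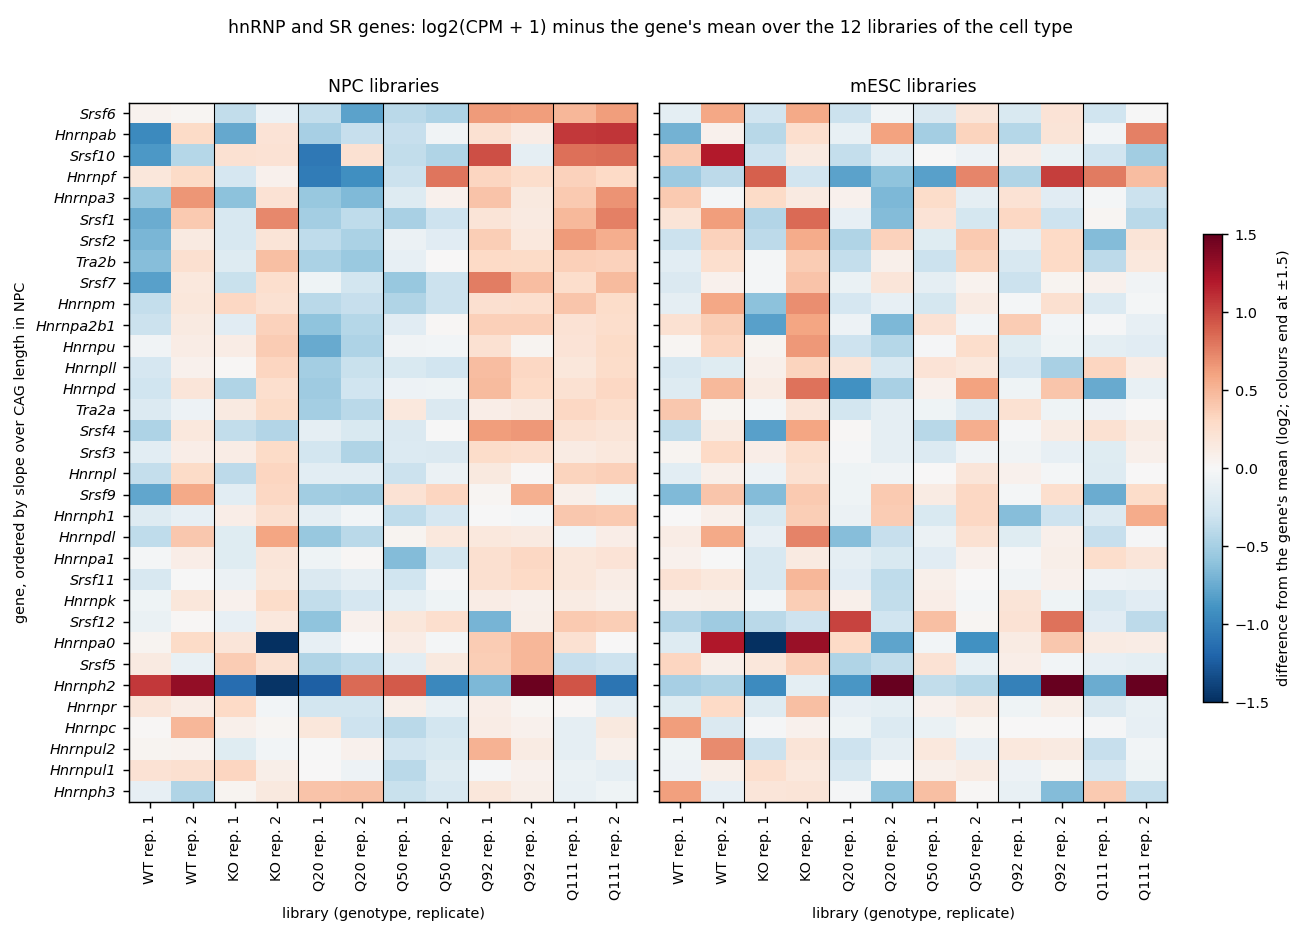
Log2(CPM + 1) of the 33 genes minus each gene's mean over the 12 libraries of the cell type, in NPC (left) and mESC (right); rows are genes ordered by their slope over CAG length in NPC, columns are libraries, and red is above and blue below the gene's mean. In NPC the Q20 and Q50 columns are mostly blue and the Q92 and Q111 columns mostly red, with medians from -0.40 in Q20 replicate 1 to 0.27 in Q111 replicate 2, and the mESC columns show no such order.

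In NPC many of the splicing factor genes rose with CAG length. The slope over the 8 knock-in libraries, given as the log2 change in CPM + 1 from 20 to 111 repeats, was above 0 for 32 of the 33 genes, with a median of 0.60 against 0.04 over all 13206 genes tested. In all, 15 genes passed the test (limma, Benjamini-Hochberg adjusted p under 0.05 over all genes), all of them rising, which is 45.5% of the members. Over all genes 22% passed, 12% rising and 10.1% falling. By family, 6 of 13 SR genes, 4 of 7 genes of the A/B and D group, 4 of 6 of the mixed group C, K, L, LL, M and R, 1 of 3 of the U group and 0 of 4 of the F/H group rose (2 of the 4 had an unadjusted p under 0.05). Levels were lowest in the Q20 line for 22 members, and highest in Q92 for 18 and in Q111 for 13. The shares of all genes with these orders were not counted. The means rose at every step over the 4 lengths for 8 members, 24.2%, against 8.5% of all genes. The 8 were Hnrnpa3, Hnrnpab, Hnrnpk, Hnrnpu, Srsf1, Srsf2, Tra2a and Tra2b.

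The fit treats the 2 libraries of a line as separate observations. With 1 mean value per line, 4 values in all, no gene of the whole table passed, and 12 members (36.4%) had an unadjusted p under 0.05, against 13.9% of all genes. Without Q20 replicate 1 the count fell from 15 to 8, 24.2% against 9.19% of all genes. Without the Q20 line it was also 8, against 14.2% of all genes, of which Srsf6, Hnrnpab, Srsf1, Srsf2, Tra2b, Hnrnpm and Hnrnpl were among the 15 with all libraries and Hnrnph1 was not. The genes Srsf6, Hnrnpab, Hnrnpa3, Srsf1, Srsf2, Tra2b and Hnrnpm passed whichever of the 8 libraries was left out.

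**Figure D2:**
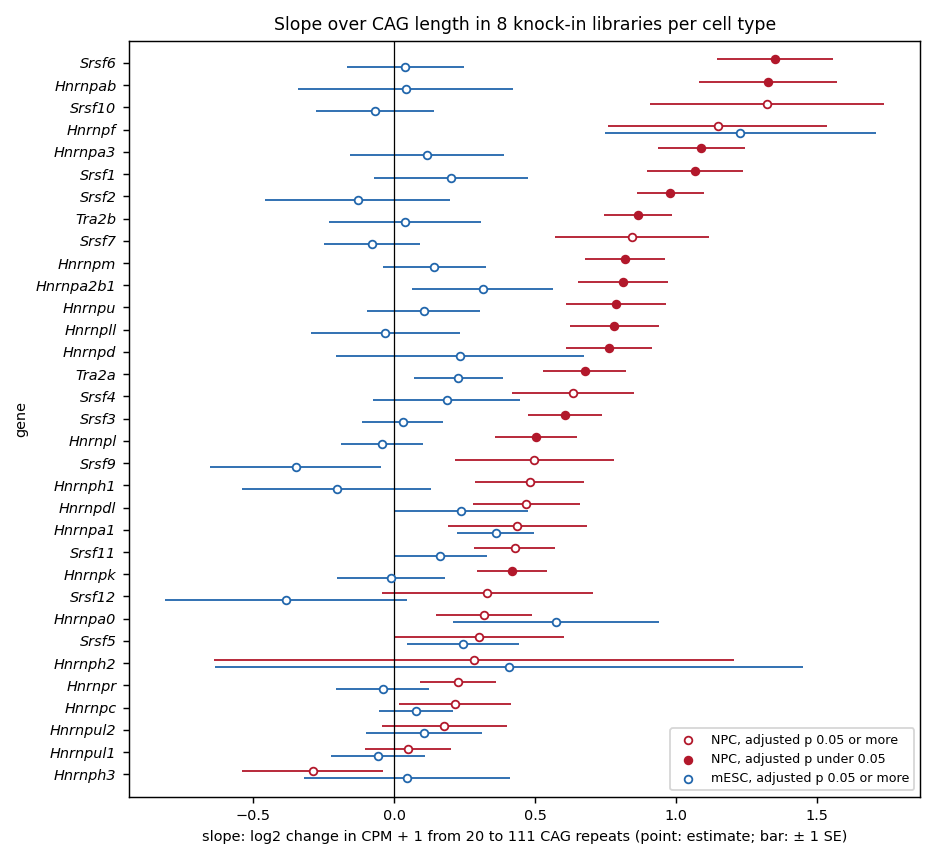
Slope of each gene over CAG length in the 8 knock-in libraries of NPC (red) and mESC (blue), on the horizontal axis as log2 change from 20 to 111 repeats with bars of 1 SE; filled points passed an adjusted p under 0.05. In NPC 32 of 33 points lie above 0 and 15 are filled, and in mESC the points lie around 0 and none is filled.

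Among the SR genes the largest slope that passed belonged to Srsf6, an activator of exon inclusion. It stood at 125 and 91.9 CPM in the Q20 libraries, 122 and 117 in Q50, 251 and 250.1 in Q92 and 228 and 249 in Q111. All 4 libraries of the long alleles lay above all 4 of the short ones, and the slope was 1.35 (SE 0.21, adjusted p = 0.00402). Srsf1, the prototype SR protein, which binds purine-rich exonic enhancers, stood at 168 and 184 CPM in the Q20 libraries, 171 and 193 in Q50, 275 and 262 in Q92 and 336 and 405 in Q111. Its Q20 and Q50 libraries overlapped while Q92 and Q111 lay apart and higher, with a slope of 1.07 (SE 0.17, adjusted p = 0.00492). Srsf2 stood at 213 and 199 CPM in the Q20 libraries, 260.2 and 246 in Q50, 357 and 308 in Q92 and 433 and 403 in Q111, so that each length lay above the one before without overlap. Its slope was 0.98 (SE 0.12, adjusted p = 0.00172), the smallest p of the 33. Tra2b, which activates exons with GAA-rich enhancers, stepped up likewise, from 141 and 133 CPM in the Q20 libraries, 181 and 197 in Q50, 243 and 240.1 in Q92 and 252 and 249.7 in Q111. The Q92 and Q111 libraries were close to each other, and the slope was 0.86 (SE 0.12, adjusted p = 0.0029). The paralog Tra2a had a slope of 0.68 (SE 0.15, adjusted p = 0.0157), with 66.3 and 71.5 CPM in the Q20 libraries, 106 and 81.6 in Q50, 101 and 105 in Q92 and 117 and 114 in Q111. Srsf3, the smallest SR protein and an export adaptor, rose by 0.60 (SE 0.13, adjusted p = 0.0156), with its highest values in Q92.

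The other 7 SR genes did not pass. Srsf10, which turns from activator to repressor when dephosphorylated, had a slope of 1.32 (SE 0.42, adjusted p = 0.0528), nearly that of Srsf6. Its libraries of 1 line did not agree, with 38.5 and 96.1 CPM in the Q20 libraries, 63.4 and 59.8 in Q50, 161 and 74.5 in Q92 and 147 and 148 in Q111. Srsf7, at 106 to 319.6 CPM over the 12 NPC libraries, had a slope of 0.84 (SE 0.27, adjusted p = 0.0579) and Srsf4 one of 0.63 (SE 0.22, adjusted p = 0.0683). Srsf11 (106 to 162 CPM) had a slope of 0.43 (adjusted p = 0.066) and Srsf9 (39.5 to 102 CPM) one of 0.50 (adjusted p = 0.24). Srsf5 had a slope of 0.30 (adjusted p = 0.508). Srsf12 had a slope of 0.33 (adjusted p = 0.567), at 0.446 to 2.07 CPM over the knock-in libraries.

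**Figure D3:**
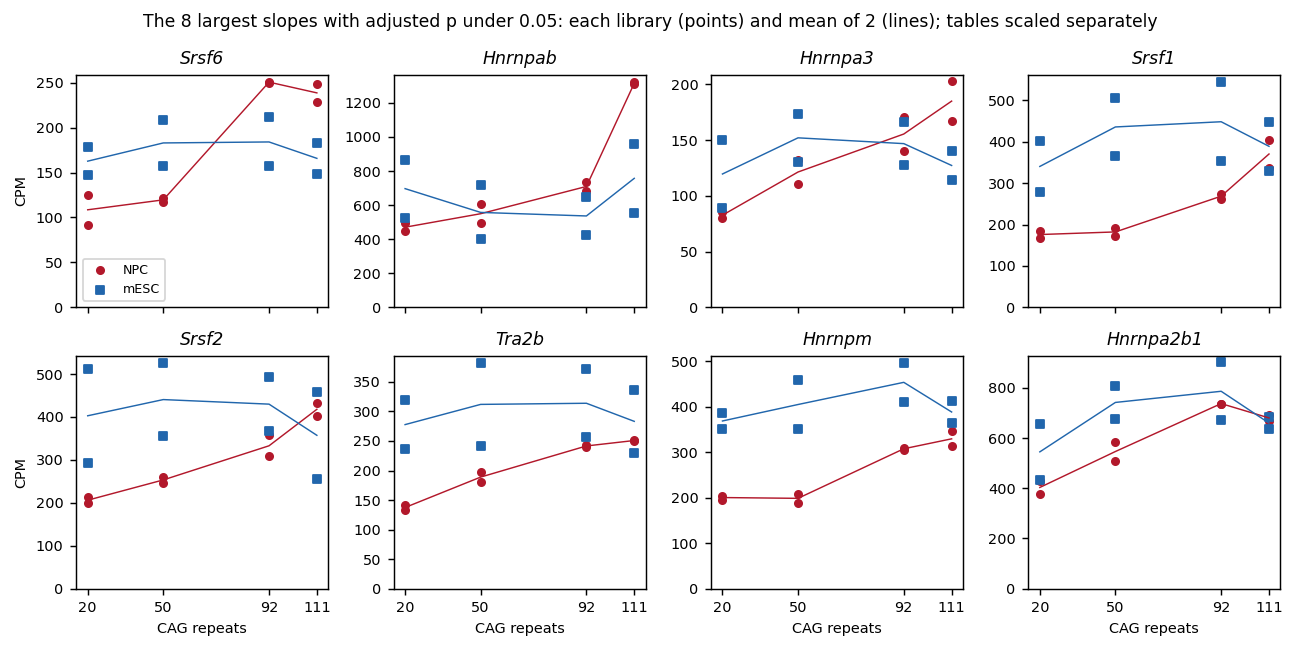
CPM against CAG repeats for the 8 genes with the largest slopes among those that passed in NPC; points are libraries (red circles NPC, blue squares mESC), lines join the means of 2 libraries, and each vertical axis starts at 0. In NPC the points of 92 and 111 repeats lie above those of 20, and in mESC the points of different lengths overlap and the 2 libraries of a line mostly lie farther apart; heights of the 2 cell types are scaled separately.

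In the A/B and D group, Hnrnpab, a protein of mRNA transport granules, had the largest slope. It stood at 446 and 494 CPM in the Q20 libraries, 494 and 605 in Q50, 738 and 680.4 in Q92 and 1309.8 and 1321 in Q111, so most of the difference lay between Q92 and Q111, and the slope was 1.32 (SE 0.24, adjusted p = 0.00827). Hnrnpa3, a close relative of the silencer-binding Hnrnpa1, stood at 85.2 and 79.9 CPM in the Q20 libraries, 111 and 132 in Q50, 170.3 and 140.4 in Q92 and 167 and 203 in Q111. Its slope was 1.09 (SE 0.15, adjusted p = 0.00312). Hnrnpa2b1, which binds UAG motifs in exons and in transported mRNA, stood at 378 and 428 CPM in the Q20 libraries, 509 and 583 in Q50, 738 and 737 in Q92 and 669 and 692 in Q111. It was highest in Q92, with a slope of 0.81 (SE 0.16, adjusted p = 0.0105). Hnrnpd, which binds AU-rich elements and promotes mRNA decay, stood at 50.0 and 59.1 CPM in the Q20 libraries, 69.5 and 69.6 in Q50, 102 and 90 in Q92 and 85.9 and 91 in Q111, with a slope of 0.76 (SE 0.15, adjusted p = 0.0112). Hnrnpdl, a paralog of Hnrnpd at 213 to 477 CPM, had a slope of 0.47 (adjusted p = 0.112) that did not pass. Nor did Hnrnpa1 with 0.44 (adjusted p = 0.237) and Hnrnpa0 with 0.32 (adjusted p = 0.21). Hnrnpa1 stood at 731 and 772 CPM in the Q20 libraries, 487 and 630.1 in Q50, 901 and 952 in Q92 and 858 and 882 in Q111, lowest in Q50 and not in Q20.

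In the mixed group 4 of 6 genes rose. Hnrnpm, which binds GU-rich sequence in introns, stood at 196 and 205 CPM in the Q20 libraries, 189 and 208 in Q50, 306 and 309.8 in Q92 and 346 and 313 in Q111. Q20 and Q50 overlapped and both long alleles lay higher, with a slope of 0.82 (SE 0.14, adjusted p = 0.00673). Hnrnpll, known for repressing variable exons of a T-cell surface phosphatase, stood at 109 and 123 CPM in the Q20 libraries, 132 and 127 in Q50, 214 and 192 in Q92 and 174 and 187 in Q111. Its slope was 0.78 (SE 0.16, adjusted p = 0.0115). Hnrnpl (362 to 607 CPM), which binds CA repeats, rose by 0.50 (SE 0.15, adjusted p = 0.041) and Hnrnpk (683 to 1064 CPM) by 0.42 (SE 0.12, adjusted p = 0.0434). These 2 calls were the least firm of the 15: Hnrnpl passed in 2 and Hnrnpk in 1 of the 8 fits that left out a library. Hnrnpc (slope 0.21, adjusted p = 0.474) and Hnrnpr (slope 0.23, adjusted p = 0.259) did not pass.

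Hnrnpu, a scaffold protein that ties RNA to chromatin, had the highest mean CPM of the members and rose in NPC at each step. It stood at 714 and 875 CPM in the Q20 libraries, 1163 and 1172 in Q50, 1411 and 1237 in Q92 and 1384 and 1469.8 in Q111, with a slope of 0.79 (SE 0.18, adjusted p = 0.0176). The Q20 libraries were apart from the other 6, and the Q50, Q92 and Q111 libraries spanned 1163 to 1469.8 CPM. Its relatives Hnrnpul1 and Hnrnpul2, which act at DNA breaks and stood at 198 to 327 and 91.7 to 162 CPM, had slopes of 0.05 (adjusted p = 0.844) and 0.18 (adjusted p = 0.608), and their 95% intervals of -0.30 to 0.40 and -0.33 to 0.68 leave changes of either sign.

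The F/H group, whose proteins bind runs of G, did not move as one. Hnrnph3 stood at 44.2 and 44.5 CPM in the Q20 libraries, 25.8 and 27.6 in Q50, 36.9 and 34.7 in Q92 and 30.3 and 31.3 in Q111, highest in Q20, and its slope of -0.29 (SE 0.25, adjusted p = 0.438) was the only one below 0. Hnrnpf stood at 83.9 and 91.4 CPM in the Q20 libraries, 139 and 304 in Q50, 218 and 209 in Q92 and 221 and 213 in Q111, with a slope of 1.15 (SE 0.39, adjusted p = 0.0665) and its 2 Q50 libraries 2.19-fold apart. Hnrnph1 stood at 479 and 511 CPM in the Q20 libraries, 404 and 439 in Q50, 524 and 515 in Q92 and 696 and 689.8 in Q111, lowest in Q50 and highest in Q111, with a slope of 0.48 (SE 0.19, adjusted p = 0.107). Hnrnph2, on the X chromosome, had a slope of 0.28 with an SE of 0.92, with the 2 libraries of a line up to 4.50-fold apart.

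Against Q20, the comparisons at single lengths gave 3, 12 and 13 members that passed in NPC. They share the 2 Q20 libraries, so a low or high value there enters all 3. At Q50, 3 members passed, 9.09% against 18.8% of all genes: Hnrnpf rose by 1.22 (SE 0.30, adjusted p = 0.0258) and Hnrnpu by 0.56 (SE 0.15, adjusted p = 0.035), and Hnrnph3 fell by 0.71 (SE 0.15, adjusted p = 0.013). None of the 3 passed without either Q20 library, and the count was 0 or 1 with any of the 4 libraries left out. At Q92, 12 passed (36.4%, all higher), against 25.8% of all genes and 9.88% higher. The largest changes were Hnrnpf at 1.28 (SE 0.30, adjusted p = 0.0173), Srsf6 at 1.22 (SE 0.16, adjusted p = 0.00104), Hnrnpa2b1 at 0.87 (SE 0.20, adjusted p = 0.0157) and Srsf5, an SR protein that responds to insulin and growth signals, at 0.85 (SE 0.14, adjusted p = 0.00315). Srsf4, Hnrnpd, Hnrnpll, Hnrnpu, Srsf3, Hnrnpm, Tra2a and Hnrnpk rose by 0.82 down to 0.40. At Q111, 13 passed (39.4%), 12 higher and 1 lower, against 28.3% of all genes and 12.2% higher. Hnrnpab rose by 1.48 (SE 0.41, adjusted p = 0.0289), Hnrnpf by 1.30 (SE 0.30, adjusted p = 0.016), Srsf6 by 1.15 (SE 0.16, adjusted p = 0.00155) and Srsf2 by 1.02 (SE 0.25, adjusted p = 0.0204). Hnrnpu, Hnrnpa2b1, Tra2a, Hnrnpm, Hnrnpll, Srsf3, Hnrnph1 and Hnrnpk rose by 0.85 down to 0.41, and Hnrnph3 fell by 0.51 (SE 0.15, adjusted p = 0.0377).

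Single libraries bear on these counts. With either Q20 library or either library of the longer allele left out, fewer members passed at each length. Their share was then near or below that of all genes passing in either direction. The share of all genes rising alone was not counted for these fits. The median difference of the members in them was 0.54 to 0.67 at Q92 and 0.54 to 0.59 at Q111. Srsf6 passed in each of these fits at both lengths, Srsf5 at Q92 and Hnrnpu at Q111. The levels of 2 SR genes at Q92 and Q111 went apart: Srsf5 stood at 177 and 187 CPM in the Q20 libraries, 219 and 270.2 in Q50, 316 and 344 in Q92 and 192 and 197 in Q111, and Srsf4 at 75.4 and 70.8 CPM in the Q20 libraries, 71.1 and 82.7 in Q50, 129 and 131 in Q92 and 97.9 and 95.2 in Q111. Both were highest in Q92, and Srsf5 in Q111 was near its Q20 level. The difference between Q92 and Q111 was not tested.

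Q20 itself differed from WT in NPC. Of the 33 members, 29 were lower in Q20, with a median log2 difference of -0.31 against -0.02 over all genes. Of these 33, 4 passed, 12.1% against 14.5% of all genes. Hnrnpf fell by 1.20 (SE 0.30, adjusted p = 0.0328), from 195 and 212 CPM in WT to 83.9 and 91.4. Hnrnpu fell by 0.64 (SE 0.15, adjusted p = 0.0255), from 1158 and 1307 CPM to 714 and 875. Srsf6 fell by 0.63 (SE 0.16, adjusted p = 0.0361), from 168 and 164 CPM to 125 and 91.9. Hnrnph3 rose by 0.72 (SE 0.15, adjusted p = 0.0154), from 29.9 and 23.7 CPM to 44.2 and 44.5. In each of the 4 the Q20 libraries lay apart from WT without overlap, as did 48.6% of all genes. A single WT library moved these values: the median was -0.48 without WT replicate 1 and -0.09, with 20 members lower, without WT replicate 2. Which members passed changed with each library of the 2 groups left out, and the number of all genes that passed moved as well.

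With WT in place of Q20 as the reference, fewer members passed at each length in NPC. The median log2 difference of the members from WT was 0.29 at Q92 and 0.31 at Q111, with 28 and 26 of 33 higher. At Q50 it was -0.12, with 12 higher. The medians of all genes were not counted for these fits. A single member (3.03%) passed at each length, against 6.62%, 8.66% and 16.6% of all genes at Q50, Q92 and Q111: Hnrnpul1 at Q50 (-0.53, SE 0.12, adjusted p = 0.0405), Srsf4 at Q92 (0.79, SE 0.19, adjusted p = 0.0414) and Hnrnph1 at Q111 (0.56, SE 0.10, adjusted p = 0.0111). Srsf6 was 0.59 and 0.52 higher in Q92 and Q111 than in WT, with adjusted p = 0.06 and 0.0623. Hnrnpab in Q111 was 1.40 above WT (adjusted p = 0.0501), and the 2 WT libraries were 2.38-fold apart. The named changes that turned their sign against WT were Hnrnph3 at Q50 and Q111 (0.00 and 0.20 higher) and Hnrnpu at Q50 (-0.08).

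No member passed between KO and WT in NPC with limma or with edgeR, and 4 had an unadjusted p under 0.05 with limma and 2 with edgeR. Over all genes 1.42% passed and 13.3% had an unadjusted p under 0.05 with limma. Without WT replicate 2, 11.9% of all genes passed. The median log2 difference was 0.17, with 21 of 33 members higher, but its sign changed with the library left out. It was -0.11 without WT replicate 1 and -0.01 without KO replicate 2, with 11 and 16 members higher. Without WT replicate 2 and KO replicate 1 it was 0.30 and 0.31. Same-numbered KO and WT libraries deviated together in NPC (correlation 0.467). Each of these fits therefore also left the library of the same number unmatched, and the part of a single library cannot be told apart from this. Hnrnph1 had the smallest p, with 562 and 621 CPM in KO against 459 and 481 in WT, a difference of 0.33 (SE 0.10, adjusted p = 0.201). All KO libraries lay above all WT libraries for it, as for 15.8% of all genes. The 2 libraries of each of these genotypes differed from each other across the family. Replicate 2 was higher than replicate 1 for 29 members in WT and 24 in KO, by a median of 0.26 and 0.27, where 52.4% and 49.3% of all genes were higher in replicate 2. Without KO replicate 1, Hnrnpa0 passed, and without WT replicate 2, Hnrnpm passed.

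Some marker sums of proliferation and of other cell types moved with the splicing factor genes over the NPC libraries. The summed CPM of 15 cell cycle genes was 2851 and 2959.9 in Q20, 3783 and 4321 in Q50, 5791 and 5283 in Q92 and 8408 and 8770.4 in Q111. All 15 rose with CAG length, with a median slope of 1.37. In WT it was 2070.2 and 6704 and in KO 2885 and 7472, so the library with more cell cycle RNA was replicate 2 in both, the one in which the splicing factor genes were higher. The sum of 9 measured astrocyte genes was 4265 and 3949.6 in Q20, 4081 and 3429.6 in Q50, 1181 and 1429.6 in Q92 and 1264 and 1279 in Q111. Of the 9, 5 fell with length and none rose. The 9 genes of feeder fibroblasts summed to 319 and 257, 897 and 919.9, 7.05 and 8.26 and 3.66 and 3.81, with 7 falling. Other lists took another order. The neural progenitor sum was highest in Q50, at 7325 and 7527. The oligodendrocyte sum was 495 and 502 in Q20, 82.4 and 83.1 in Q92 and 303 and 297 in Q111. The medians of the splicing factor genes in the same libraries, as differences from each gene's mean, were -0.40 and -0.31 in Q20, -0.22 and -0.11 in Q50, 0.24 and 0.16 in Q92 and 0.23 and 0.27 in Q111. Between mESC replicates the cell cycle sum and the splicing factor genes went apart. The sum was higher in replicate 1 in every genotype, with 9933 and 7957 in WT and 10124 and 8763 in KO. Replicate 2 was the higher there for 17 to 30 of the 33 members, depending on the genotype. The part of cell cycle activity, of other cells in the culture and of the pluripotency RNA of the Q20 libraries in the rising NPC slopes was not tested. In bulk RNA, a change in the share of cells with high levels and a change within each cell cannot be told apart.

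**Figure D4:**
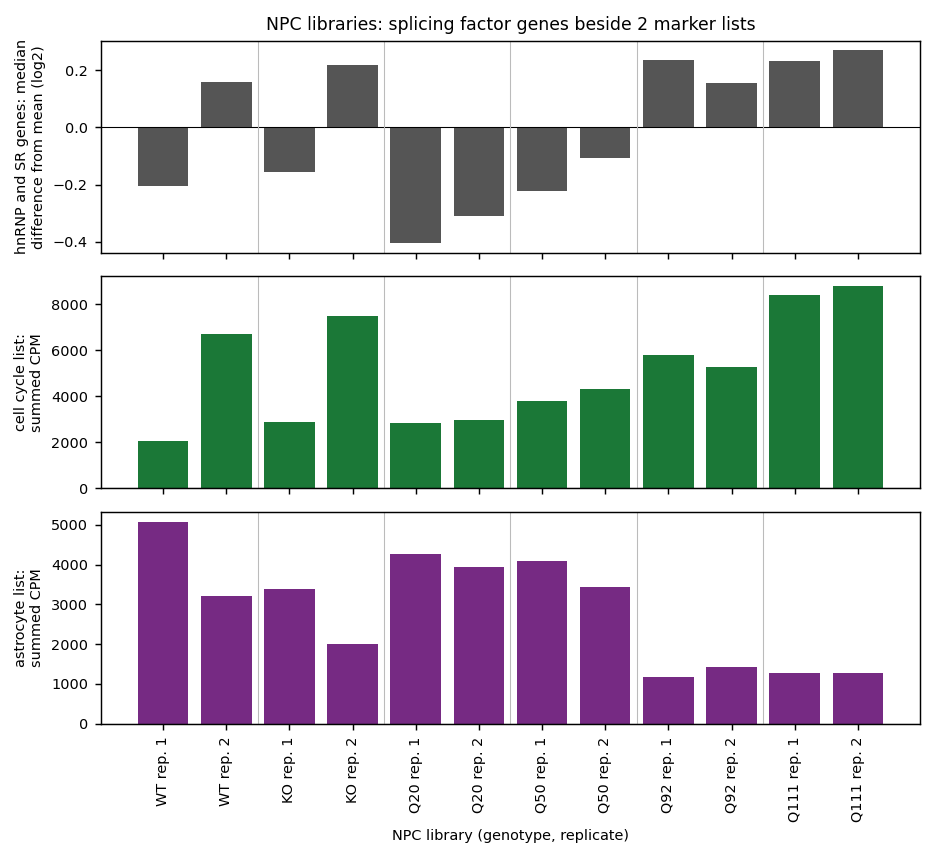
For each NPC library, the median difference of the 33 splicing factor genes from their own means (top, log2), the summed CPM of 15 cell cycle genes (middle) and of 9 astrocyte genes (bottom); bars start at 0. Within WT and KO, the top and middle panels are both higher in replicate 2, and both are higher in Q92 and Q111 than in Q20 and Q50, while the astrocyte sum drops from 4265 and 3950 in Q20 to 1264 and 1279 in Q111.

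In mESC no splicing factor gene passed in any of the 6 comparisons, with limma or with edgeR. Under an unadjusted p of 0.05, limma gave 1 member for KO against WT, 4 for Q20 against WT, 3, 2 and 1 for Q50, Q92 and Q111 against Q20, and 2 for the slope. The shares of all genes under the same limit were 3.97%, 12.3%, 6.37%, 5.37%, 2.69% and 2.57%. Among the members they ran from 3.03% to 12.1%, the highest for Q20 against WT. With edgeR the member counts were 1, 5, 2, 1, 0 and 2. Few genes of the whole table passed either: 0.0144%, 0.323%, 0.00719%, 0.00719%, 0% and 0% in the same order. Q20 was on the low side in mESC as well. There 25 of 33 members were lower than in WT, with a median of -0.25 against -0.04 over all genes. The median was -0.31 to -0.12 with any library of the 2 groups left out. Both Q20 libraries lay below both WT libraries for 42.4% of members, against 20.4% of all genes. Both libraries lay above both Q20 libraries for 36.4%, 45.5% and 21.2% at Q50, Q92 and Q111, against 17.3%, 15.5% and 11.9%. The median slope of the members was 0.08, with 22 above 0 and 11 below, against 0.01 over all genes. Hnrnpa1 had the smallest p, with 787 and 738 CPM in the Q20 libraries, 763 and 902 in Q50, 850.4 and 916 in Q92 and 1032 and 980.4 in Q111. Its slope was 0.36 (SE 0.14, adjusted p = 1), and 3 of its 4 short-allele libraries lay below all 4 of the long alleles. Hnrnpf had the largest slope, 1.23 (SE 0.48, adjusted p = 1), with the 2 libraries of a length up to 2.91-fold apart. The width of the intervals limits what the absence of calls shows: for Srsf6 the mESC slope was 0.04 with a 95% interval of -0.43 to 0.51, and for Hnrnpab it was 0.04 with an interval of -0.82 to 0.90. With the replicate number held as a block, these intervals were -0.23 to 0.31 and -0.45 to 0.53.

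The replicate numbers of mESC marked libraries that deviated together in all 15 pairs of genotypes, and a fit that held the number as a block lowered the error. Q20 against WT then gave 5 members, 15.2%, against 10.6% of all genes (1475). Hnrnpab rose (0.57, SE 0.09, adjusted p = 0.0133), from 348 and 595 CPM in WT to 527 and 866 in Q20, with replicate 2 the higher in both. Srsf10 fell by 1.04 (SE 0.25, adjusted p = 0.0416), from 134 and 234 CPM to 79.8 and 91.6. Without the block its SE was 0.28 and its adjusted p 0.164. Hnrnpd fell by 0.84 (adjusted p = 0.0096), Hnrnpdl by 0.83 (adjusted p = 0.0203) and Srsf5 by 0.62 (adjusted p = 0.0332). Hnrnpd, at 74.8 and 119.8 CPM in WT and 45.1 and 60.7 in Q20, was 89.2 and 131 in Q50 and 81.8 and 114 in Q92, and with the block it was higher at both lengths than in Q20, by 1.03 (adjusted p = 0.0211) and 0.87 (adjusted p = 0.0328). In Q111 it was 49.9 and 79.1, near Q20. Feeder fibroblast genes summed to 15.1 to 21 CPM in the WT and KO mESC libraries and to 78.3 to 150.1 in the knock-in libraries, and their part in the difference between Q20 and WT was not tested. KO against WT and Q111 against Q20 gave none with the block.

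Between KO and WT in mESC the member with the smallest p was Srsf10, at 82.4 and 113 CPM in the libraries labelled KO, a difference of -0.87 (SE 0.28, adjusted p = 0.985) from the WT values above. All 10 other libraries of mESC lay at or below 113 CPM, so both WT libraries stood apart from those of every other genotype label. In Q50 and Q92 against Q20, Hnrnpd at 1.03 (SE 0.37, adjusted p = 0.682) and Srsf5 at 0.44 (SE 0.17, adjusted p = 0.853) had the smallest p without the block. In Q111 against Q20 it was Hnrnpa1 at 0.40 (SE 0.17, adjusted p = 0.999). The median difference between KO and WT was 0.01. It was 0.32 without the library labelled KO replicate 1, the one with Htt above WT, and -0.25 without the library labelled KO replicate 2. Same-numbered KO and WT libraries deviated together (correlation 0.544), so each of these 2 fits also left a WT library unmatched. Replicate 2 was the higher of the libraries labelled KO for 30 of 33 members, and of the WT libraries for 25. The part of the KO label in these medians was not tested.

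The difference between the 2 cell types was tested directly as the NPC slope minus the mESC slope over the 16 knock-in libraries. It was above 0 for 29 of 33 members, with a median of 0.53 against 0.05 over the 12321 genes tested in both. A single member passed, Srsf6, where 4.86% of all genes did: 1.31 (SE 0.30, adjusted p = 0.0207). Its mESC values of 147 and 178 CPM in the Q20 libraries, 158 and 208 in Q50, 157 and 211 in Q92 and 149 and 183 in Q111 overlap between lengths. An unadjusted p under 0.05 was found for 14 members, 42.4%, against 20.5% of all genes. The largest difference was that of Srsf10 at 1.39 (SE 0.48, adjusted p = 0.111), which did not pass. Nor did Hnrnpab at 1.28 (SE 0.48, adjusted p = 0.139) and Srsf2 at 1.11 (SE 0.37, adjusted p = 0.0981). With the replicate block 6 members passed, 18.2% against 8.16% of all genes: Srsf6, Srsf2 (adjusted p = 0.00585), Tra2b (adjusted p = 0.0107), Hnrnpa3 (adjusted p = 0.0319), Hnrnpab (adjusted p = 0.0391) and Srsf1 (adjusted p = 0.0404). Srsf6 did not pass without mESC Q20 replicate 2 (adjusted p = 0.0556), mESC Q111 replicate 1 (adjusted p = 0.0533) or NPC Q20 replicate 2 (adjusted p = 0.0639).

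For 4 genes, chosen after their values were seen, libraries of one genotype lay far apart. Hnrnph2 in NPC stood at 192 and 228 CPM in WT, 40.5 and 32.3 in KO and 38.5 and 165 CPM in the Q20 libraries, 173 and 46.3 in Q50, 56.5 and 255 in Q92 and 177 and 42.2 in Q111. Its 12 values fell into 6 between 32.3 and 56.5 and 6 between 165 and 254.6, and all 4 knock-in lines had 1 library of each kind. In mESC it stood at 24.9 and 25.8 in WT, 18.1 and 32.0 in KO and 19.0 and 117 CPM in the Q20 libraries, 27.4 and 26.3 in Q50, 17.1 and 134 in Q92 and 20.9 and 135 in Q111, with 3 libraries above 116 CPM and 9 below 33. Hnrnpa0, an intronless gene of 1 annotated exon, stood at 28.9 and 222 in the mESC libraries labelled KO and at 78.3 and 209 in WT. In NPC it was 128 to 197 CPM in 11 libraries and 46.1 in KO replicate 2. Hnrnpf in mESC stood at 204 and 227 in WT, 555 and 244 in KO and 171 and 196 CPM in the Q20 libraries, 169.9 and 495 in Q50, 218 and 612 in Q92 and 512 and 412 in Q111. Of these 12 values, 5 were above 411 CPM and 7 below 245. Srsf10 in NPC stood at 44.8 and 60.9 in WT and 96.0 and 95.5 in KO, beside the knock-in values above. A difference of more than 2-fold between the 2 libraries of a genotype was found for 4.13% to 18.5% of all genes, depending on the genotype.

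**Figure D5:**
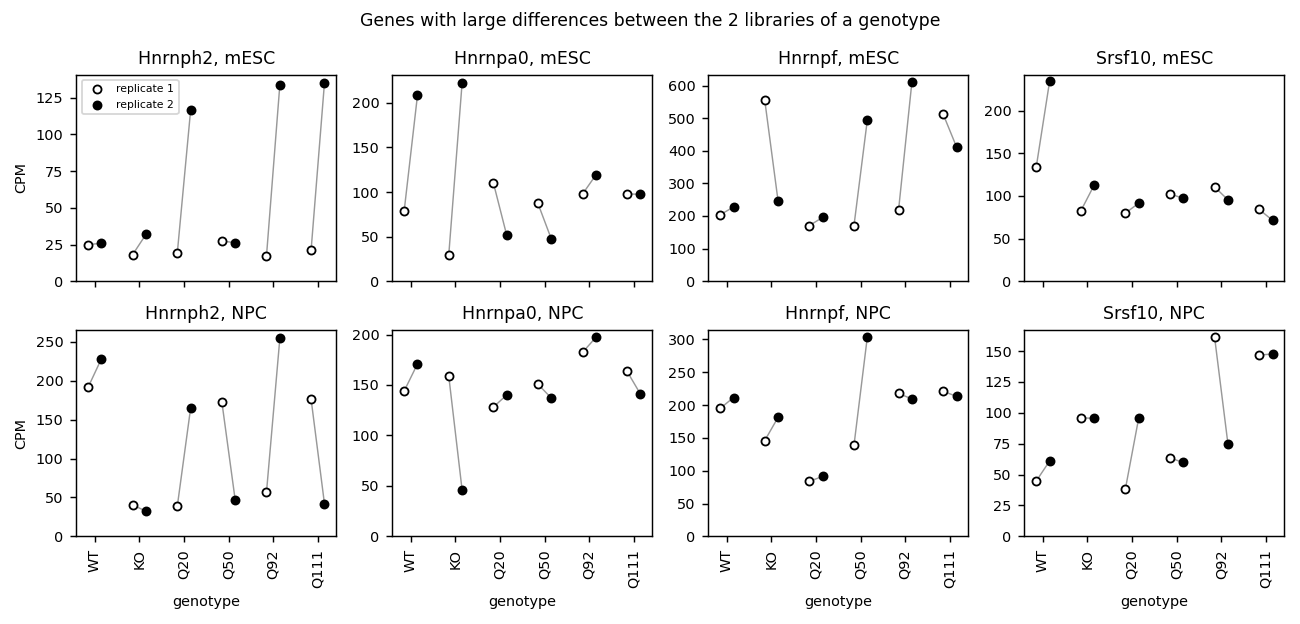
CPM of Hnrnph2, Hnrnpa0, Hnrnpf and Srsf10 in each library of mESC (top row) and NPC (bottom row) by genotype; open points are replicate 1, filled points replicate 2, a line joins the 2 libraries of a genotype, and each vertical axis starts at 0. Hnrnph2 in NPC lies near 40 or near 200 CPM with all 4 knock-in lines split between both levels.

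Over all 6 genotypes of mESC, replicate 2 was higher for 9 members: Hnrnpab, Hnrnpd, Hnrnpdl, Hnrnph1, Hnrnpm, Srsf2, Srsf6, Srsf9 and Tra2b. It was lower throughout for 1, Hnrnpa3. Of all genes 19.7% were higher and 21.7% lower in every genotype. Srsf9 was one of these, with 34.9 and 74.7 CPM in WT, 35.2 and 73.2 in KO and 32.8 and 67.4 in Q111. In NPC 1 member was higher throughout, Hnrnpa1, and 1 lower, Hnrnpr, where 2.85% and 1.97% of all genes were.

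Other genes of the splicing machinery were read from 4 lists, beside the 12% of all genes that rose and the 10.1% that fell with CAG length in NPC. Of 42 tested core spliceosome genes, 14 rose with CAG length and 0 fell, with a median slope of 0.49. Eftud2, a GTPase of the U5 particle, rose by 1.13 (adjusted p = 0.0247) and Snrpd1, a protein of the Sm ring, by 1.12 (adjusted p = 0.00481). Of 6 tested genes that encode hnRNP proteins under other symbols 3 rose, with a median of 0.65, among them Syncrip by 1.09 (adjusted p = 0.00303) and Raly by 0.72 (adjusted p = 0.00673). Of 10 SR protein kinases and cofactors 2 rose and 1 fell. Srrm2, a scaffold of nuclear speckles, rose by 0.69 (adjusted p = 0.0411), and Clk1, a kinase that phosphorylates SR proteins, fell by 0.90 (adjusted p = 0.0445). Among 32 tested tissue-specific and other splicing regulators 8 rose and 2 fell. Mbnl3, a relative of the factor that binds expanded CUG repeats, rose by 2.02 (adjusted p = 0.0172), and Khdrbs2, of the STAR family, fell by 2.23 (adjusted p = 0.0146). In mESC none of the genes on these 4 lists passed for the slope or for KO against WT, where 0% and 0.0144% of all genes did.

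By annotation these genes are rich in transcripts that do not encode the full protein. A transcript marked for nonsense-mediated decay was annotated (GENCODE M21) in 21 of the 33, 63.6%, against 26% of the 15959 protein-coding genes of the NPC table. A retained-intron transcript was annotated in 24, 72.7%, against 53.2%. The CPM tables sum all transcripts of a gene, and productive and unproductive forms are not separated in these values. Exons of 14 members overlap exons of another gene, 11 on the opposite strand and 3 on the same. Among genes that rose, Hnrnpab overlaps Phykpl, Srsf2 overlaps Mettl23 and Mfsd11, Hnrnpu overlaps Cox20 and Hnrnpk overlaps Rmi1 on the opposite strand. On that strand Srsf1 also overlaps Gm11508, Hnrnpd Gm17092 and Hnrnpl Gm44702. On the same strand Hnrnpm overlaps March2 and Hnrnpa3 overlaps Gm24574. Srsf6 and Tra2b overlap none. Whether the counting used strand is not given in the sources used here, so reads from such neighbours cannot be told apart, and reads shared between close paralogs of these families may have been split or dropped.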

How the data were processed

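Total RNA of 24 libraries (12 per cell type, 2 per genotype) was sequenced on a NextSeq 500. The submitters' processing notes name CASAVA 1.8, STAR and GRCm38.p6, and the counting tool, strand setting and filters are not given in the sources used here. The authors deposited 1 table per cell type of a library-scaled signal per gene, here called CPM (read counts scaled per library), in which column totals were 900342 to 1080734. All values (100%, within a tolerance of 0.01 reads) were whole multiples of 1 value per library, so whole reads per library could be recovered.

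Groups were compared with limma 3.58.1 (R 4.3.3; moderated test with an intensity trend, two-sided) on log2(CPM + 1), which understates changes of low genes, over genes with at least 1 CPM in at least 2 libraries, 13916 in mESC and 13206 in NPC. Pairs of groups were taken from a model of all 12 libraries of the cell type, slopes from the 8 knock-in libraries over 91 repeats, and the slope difference from 16 libraries. P-values were adjusted by Benjamini-Hochberg over all genes, with 0.05 as the limit. As an addition chosen after seeing the data, edgeR 4.0.16 (quasi-likelihood) on the recovered reads gave 13 members for the NPC slope, of 2731 genes. The fits were also run on simulated counts with the same dispersion for all genes and no replicate or line effect. Those runs do not test the p-values where such effects are present.

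Same-numbered mESC libraries deviated together (correlations of deviations from group means 0.25 to 0.547 over 15 pairs of genotypes), so the number was taken to pair them. In NPC 3 of 15 pairs had a correlation over 0.1: KO with WT (0.467), WT with Q50 (0.17) and KO with Q50 (0.106). The value of KO with WT was within the range of the mESC pairs, and no pair of knock-in lines was among the 3. For pairs of groups, the NPC block held the same shift for every genotype over the 12 libraries. Whether it removed a shift shared by KO and WT alone was not tested. Where no source says that libraries were separate cultures, p-values measure the spread between these libraries. The members and lists were chosen with earlier results of these data known. Full statistics went to up to 4 rising and 4 falling genes per comparison that passed (8 for slopes) or else the smallest p. Alternatives were another pseudocount (0.25), no filter or a mean of at least 5 CPM, median-of-ratios scaling, the replicate block, WT as reference, only the libraries of both groups, left-out libraries and lines, and 89 repeats. Python 3.11.15, pandas 2.3.3 and matplotlib 3.10.9 made the tables and figures.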

Additional observations from a re-analysis of the deposited data

Results flagged for a closer look

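Effects that differed between the 2 cell types are listed here. The slope of Srsf6 over CAG length was 1.31 higher in NPC than in mESC (limma, adjusted p = 0.0207), by a direct test of the difference. Hnrnph3 in Q50 against Q20 moved in opposite directions in all libraries, 0.55 higher in mESC and -0.71 in NPC. Hnrnpll in Q92 against Q20 was -0.35 in mESC and 0.80 higher in NPC, again without overlap. Such separation was common: Q50 and Q20 did not overlap for 70.1% of all genes in NPC and 32.7% in mESC. For Q92 and Q20 these shares were 77.2% and 30.3%. Neither gene passed in mESC, and against WT Hnrnph3 at Q50 in NPC was 0.0019. For these 2 genes the difference between the cell types was not tested.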

How the results depend on the processing

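In mESC, the replicate block took the members that passed from 0 to 5 for Q20 against WT. It took them from 0 to 1 for Q50 and for Q92 against Q20, and edgeR with the block gave the same counts. Over all genes the limma counts of these comparisons went from 45, 1 and 1 to 1475, 137 and 64. For the mESC slope and KO comparison 0 members passed under each alternative run. In NPC the block gave 4 members for Q20 against WT, and 3, 13 and 17 for Q50, Q92 and Q111 against Q20. It gave 13 for the slope and 0 for KO against WT. Over all 13206 genes the block gave 1915, 2504, 3561, 3979, 2015 and 145 in the same order. Because the block held the same shift for every genotype, its KO against WT counts leave a shift shared by KO and WT alone untested. The members that passed for the slope difference went from 1 to 6 with the block. Fitted on only the libraries of both groups, 1 member passed in NPC for Q20 against WT. For Q50, Q92 and Q111 against Q20, 6, 24 and 24 passed. Over all 13206 genes these fits gave 476, 3927, 6160 and 6712. A mean of at least 5 CPM gave 2 members for Q20 against WT. With WT as the reference 1 member passed at each of the 3 lengths, and Srsf5 at Q92 in mESC was -0.18, Hnrnph3 at Q50 in NPC 0.0019, Hnrnpu at Q50 in NPC -0.0757 and Hnrnph3 at Q111 in NPC 0.20. With 1 mean value per line the NPC slope and the slope difference gave 0, and without the Q20 line the NPC slope gave 8. Leaving out each library gave 0 to 1 member for KO against WT, 1 to 7 for Q20 against WT, 0 to 1 for Q50, 2 to 5 for Q92 and 2 to 5 for Q111 against Q20, 8 to 15 for the slope in NPC, and 0 to 2 for the slope difference. A lone library was assumed to vary like the other groups. The cause of these moves was not tested. Fits with a library or line left out held fewer libraries, and a left-out library also left those of the same number unmatched. Over the 55 results for named genes and 830 alternatives, 619 kept direction and side of the limit, 203 no longer passed, 4 newly passed and 4 turned sign. Counts over all genes also moved: Q20 against WT in mESC gave 45 genes, 1475 with the block and 12 with edgeR, and the NPC slope gave 2909, 1880 without the Q20 line and 0 with 1 mean per line. Among pairs in NPC, KO against WT gave 188, 81 with a mean of at least 5 CPM, 1577 without WT replicate 2 and 0 with only both groups, Q92 against Q20 gave 3407 and 6160 with only both groups, and Q111 against Q20 gave 3743 and 6712. The slope difference gave 599 and 1005 with the block. Each member had at least 13 reads in each library, fewest for Srsf12, and whether depth or the number of libraries limits these comparisons was not tested. edgeR was not run for the slope difference.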
